A study of Mus musculus with 10 samples.

Results

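The lysosome and cathepsin genes described here are 33 genes, matched by name among the 24391 gene names of the count files, that encode lysosomal proteases, other lysosomal hydrolases and their cofactors, lysosomal membrane proteins, the cathepsin inhibitor cystatin C and the transcription factor Tfeb. They comprised 9 cysteine cathepsins, 4 other peptidases, 7 glycosidases, 5 genes of lipid handling and cofactors, 6 membrane proteins, and 1 inhibitor and 1 regulator. The study sequenced RNA of the whole hippocampus of both sides from male mice of 10 to 14 weeks, of the strain that its methods print as C56BL/6J, on day 4. SAH mice (n = 4) had a subarachnoid hemorrhage, a bleed into the space around the brain, made by pushing a filament through an artery wall of the circle of Willis on 1 side, Sham mice (n = 3) had the filament advanced without a puncture, and Naive mice (n = 3) had no surgery. Only mice whose blood flow dropped at the perforation were taken into the SAH group, so the group holds selected animals. Sham and Naive mice together form the control group (n = 6), and each mouse gave 1 library.

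Lysosomes are acidic organelles in which proteins, glycans and lipids delivered by endocytosis, phagocytosis and autophagy are broken down. Cathepsins are their main proteases, and most are made as inactive precursors that are cut in the acidic lumen. In the brain, microglia and macrophages hold high levels of several cathepsins, neurons and astrocytes also depend on lysosomes, and cystatin C, an abundant secreted protein, inhibits cysteine cathepsins outside the cell.

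Promoter sequences are given for 4 of the genes because the best known transcriptional control of lysosomal genes runs through short promoter motifs. Tfeb and its relatives bind the E-box CACGTG, PU.1 of macrophages and microglia binds sequences holding GAGGAAGT, and interferon-regulated factors bind repeats of GAAA set 2 bases apart. RefSeq windows (GRCm38.p6) that run from 250 bases before to 50 bases after an annotated start were found for 30 of the 33 genes, and not for Ctsb, Ctsh and Npc1. Capitals mark the matches to these 3 motifs on either strand, with ACTTCCTC and a repeat of TTTC as the letters of the other strand. Shown are the windows of Ctss and Ctsc, which rose in SAH and hold the PU.1 letters, of Ctsd, which rose and holds E-boxes, and of Lamp1, which holds 4 E-boxes and did not pass the test. Each is cut at or close to the start. The PU.1 letters are also in the window of Gusb, which did not pass the test and is not shown.
Ctss, chr3:95526546-95526793, plus strand: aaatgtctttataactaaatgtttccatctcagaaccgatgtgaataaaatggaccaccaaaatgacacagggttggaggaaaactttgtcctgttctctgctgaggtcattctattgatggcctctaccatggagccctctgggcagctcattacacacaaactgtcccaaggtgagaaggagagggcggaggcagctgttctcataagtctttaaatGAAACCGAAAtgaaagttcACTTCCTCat
Ctsc, chr7:88277835-88278084, plus strand: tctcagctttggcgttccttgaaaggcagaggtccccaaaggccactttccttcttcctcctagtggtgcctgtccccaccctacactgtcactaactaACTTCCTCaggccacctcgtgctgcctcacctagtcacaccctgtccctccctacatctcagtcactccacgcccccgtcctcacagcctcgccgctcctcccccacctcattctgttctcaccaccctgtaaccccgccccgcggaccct
Ctsd, chr7:142387828-142388077, minus strand: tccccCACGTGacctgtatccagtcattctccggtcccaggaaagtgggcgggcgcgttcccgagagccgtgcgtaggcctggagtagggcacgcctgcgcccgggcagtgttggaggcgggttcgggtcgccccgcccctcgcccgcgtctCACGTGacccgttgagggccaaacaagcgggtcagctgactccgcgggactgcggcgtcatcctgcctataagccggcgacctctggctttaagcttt
Lamp1, chr8:13158911-13159160, plus strand: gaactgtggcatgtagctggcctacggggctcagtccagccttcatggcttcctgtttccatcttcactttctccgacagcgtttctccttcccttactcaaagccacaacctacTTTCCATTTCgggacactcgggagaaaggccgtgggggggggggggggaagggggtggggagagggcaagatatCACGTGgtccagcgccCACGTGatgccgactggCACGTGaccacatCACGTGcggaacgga

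All 33 genes were expressed in every mouse and passed the filter on low counts in all 4 comparisons. Between genes, levels were compared as FPKM, counts scaled by exon length and by library. Cst3 stood highest, with 1340.3 ± 98.5 FPKM in control mice (SD, n = 6) and 1409 ± 76.6 in SAH mice (SD, n = 4). Psap, whose product is cut into the saposins that assist lipid breakdown, followed with 594 ± 12.4 FPKM in control mice, and the aspartic protease gene Ctsd with 183 ± 7.49. Next came Lamp1 with 155 ± 4.26 FPKM, Ctsb with 125 ± 1.66 and Gaa with 99.5 ± 6.92. These 6 levels were separated by more than the spread between mice. At the low end stood Tfeb with 2.93 ± 0.400 FPKM and Ctsk, a cathepsin best known from bone-resorbing cells, with 1.36 ± 0.211. Much of the middle of the order could not be ranked beyond that spread, such as Mcoln1 with 23.9 ± 0.662 FPKM and Grn with 23.8 ± 0.977.

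**Figure D1:**
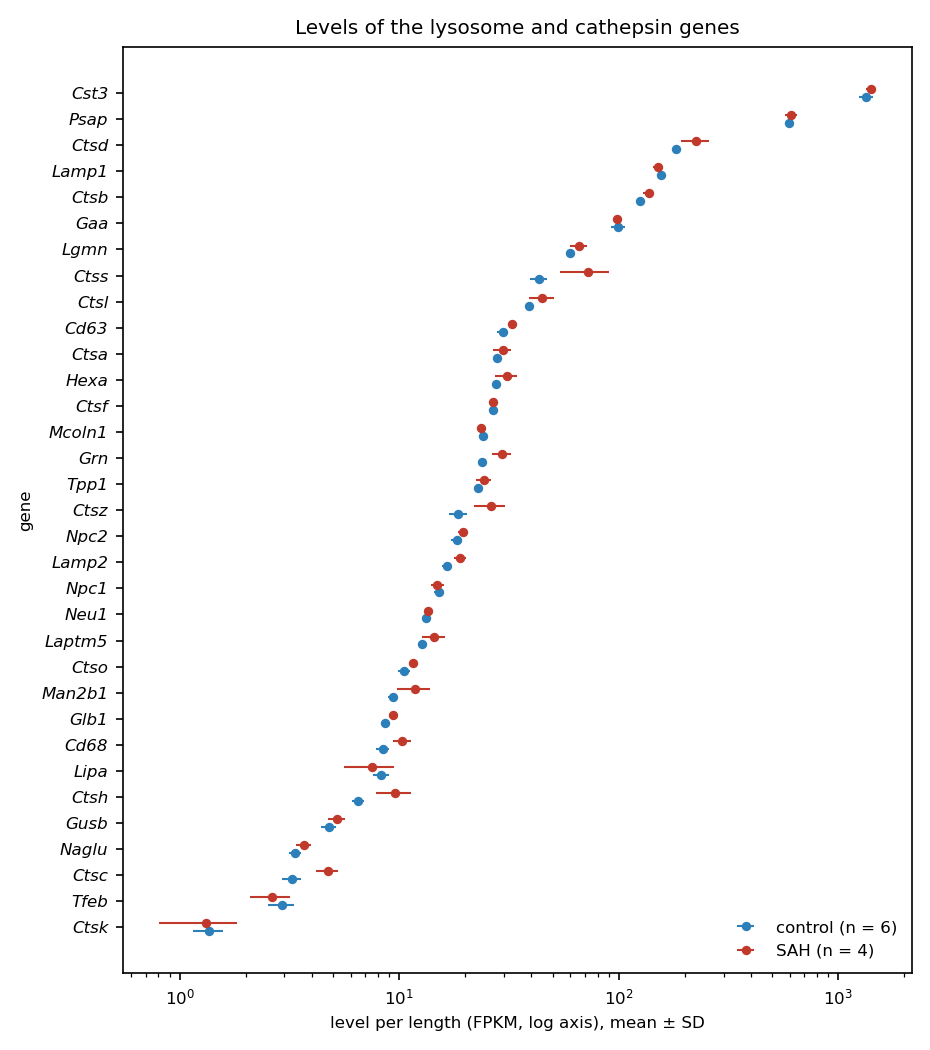
Level per length of the 33 genes in FPKM on a log axis, as mean ± SD of the 6 control mice (blue) and the 4 SAH mice (red), ordered by the control mean. Cst3 stood highest at 1340.3 FPKM and Ctsk lowest at 1.36 FPKM in control mice.

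The main comparison asked which of these genes differed between the hippocampus of SAH mice and that of control mice. Of the 33 genes, 10 were higher in SAH mice and 0 were lower at an adjusted p under 0.10 (edgeR's quasi-likelihood test with Benjamini-Hochberg adjustment over all 14993 genes tested). Among all genes tested 3.13% were called higher and 1.54% lower. The genes that rose were the cathepsins Ctss, Ctsc, Ctsh, Ctsz, Ctsb and Ctsd, the mannosidase Man2b1, progranulin (Grn) and the membrane proteins Lamp2 and Cd68, by 9.32% to 67.3%. Cysteine cathepsins made up 5 of the 10, out of 9 listed, against 1 of 4 other peptidases, 1 of 7 glycosidases, 1 of 5 genes of lipid handling and cofactors, 2 of 6 membrane proteins and 0 of 2 for Cst3 and Tfeb. DESeq2 called 11 higher, adding Ctsl, and 0 lower, against 4.22% and 2.65% of all genes. At an unadjusted p under 0.05 in edgeR, 17 were higher and 0 lower, against 9.13% and 7.87% of all genes.

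Over the whole list, the log2 fold change was above 0 for 25 of 33 genes, against 49.1% of all genes tested. The median was 0.13 for the list and -0.0024 for all genes. The levels of all 4 SAH mice lay above those of all 6 control mice for 7 genes, Ctsb, Ctsc, Ctsh, Ctss, Ctsz, Grn and Cd68, and below them for 0. Among all genes 2.83% lay entirely above and 2.37% entirely below. The 4 SAH mice were not alike. Mouse 3 stood apart in its counts over all genes, with a chi-square per degree of freedom of 16.4 to 20.7 against the other SAH mice, where all other pairs within a group had 4.30 to 11.4. SAH mouse 2 had the lowest level among them for 22 of the 33 genes, including all 10 that passed the test, while mouse 3 was highest for 17 and mouse 4 for 11.

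The SAH mice also differed in markers of tissue next to the hippocampus. The summed level of 8 choroid plexus markers (Ttr, Folr1 and others) was 101 to 1229 CPM (counts scaled by library size) in SAH mice, 57.3 to 832 in Sham mice and 44.7 to 68.5 in Naive mice, and was highest in SAH mice 3 and 4 and Sham mouse 7. Against the pooled controls 0 of the 8 passed the test in edgeR, and none was at 0 in every mouse. With the level of these markers as a covariate 1 of the 33 genes, Ctss, was called higher, against 0.907% of all genes. Under that covariate the log2 fold change was 0.45 for Ctsc (adjusted p = 0.101, edgeR) and 0.46 for Ctsh (adjusted p = 0.107, edgeR), which both missed the threshold. Without the 3 mice, an alternative chosen after seeing the data, 3 were called, namely Ctss, Ctsc and Ctsh, against 1.70% of all genes. The part of the choroid plexus in the other calls was not tested. With any 1 mouse left out, 5 to 13 of the genes were called higher, against 1.48% to 4.55% of all genes, and the fewest were called when SAH mouse 4, or Naive mouse 8, or Naive mouse 9, was absent.

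**Figure D2:**
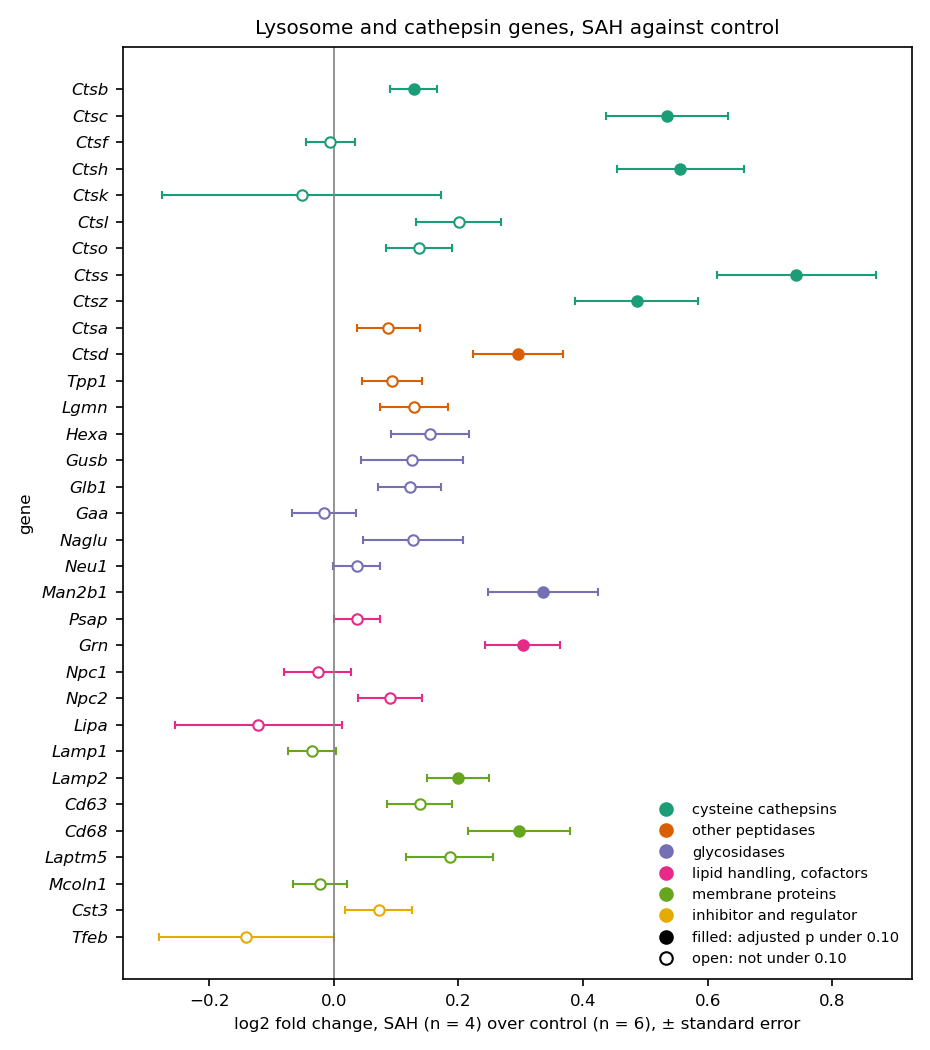
Log2 fold change of each gene between SAH (n = 4) and control mice (n = 6) with its standard error from edgeR, coloured by role. Filled points passed the adjusted p threshold, all 10 of them on the side of higher levels, from 0.13 for Ctsb to 0.74 for Ctss.

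Among the cysteine cathepsins, Ctss changed most. It encodes cathepsin S, a protease of microglia and other antigen-presenting cells that trims the invariant chain of MHC class II and stays active at neutral pH. SAH mice 1 to 4 had 88.6, 69.2, 109.9 and 126 CPM, and control mice ranged from 50.4 over a median of 59.4 to 66.3. All SAH mice were above all control mice, although mouse 2 exceeded Sham mouse 7 only narrowly. The group means were 98.5 ± 24.8 and 58.8 ± 5.24 CPM (SD), and the log2 fold change was 0.74 with a standard error of 0.13 (adjusted p = 0.00764 by edgeR's quasi-likelihood test with Benjamini-Hochberg adjustment). Of the 10 genes it was the only one to pass under every other setting run, with a lowest log2 fold change of 0.46 and a highest adjusted p of 0.0734. Ctss lies at chr3:95330708-95360327 on the plus strand (mm9), 17398 bases downstream of Ctsk. Its neighbour Ctsk had a log2 fold change of -0.05 ± 0.22 (SE), with SAH mice at 2.95, 2.57, 1.21 and 1.6 CPM and control mice between 1.80 and 2.67. The SAH mice straddled the control mice for Ctsk, and its counts were low, 24 to 71 per mouse.

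Ctsc, Ctsh and Ctsz rose by similar amounts. Ctsc (chr7:95426603-95459385, plus strand, mm9) encodes cathepsin C, a dipeptidyl peptidase that activates serine proteases of immune cells. Its SAH mice had 11.5, 10.1, 11.7 and 13.4 CPM, against 6.74, 7.95 and 8.96 as the lowest, median and highest control values, and the log2 fold change was 0.53 ± 0.10 (SE, adjusted p = 0.00989, edgeR). Ctsh (chr9:89949105-89970933, plus strand, mm9), an aminopeptidase, had 14.5, 12.9, 15.4 and 19.5 CPM in SAH mice and 9.62, 10.6 and 11.6 as lowest, median and highest in the controls (log2 fold change 0.56 ± 0.10, adjusted p = 0.01, edgeR). For both genes the groups did not overlap. Ctsz (chr2:174252995-174264493, minus strand, mm9), a carboxypeptidase also called cathepsin X, had 33.2, 29.7, 42.6 and 39.9 CPM in SAH mice. Its control mice ranged from 21.9 over 26.6 to 28.6 CPM, and the log2 fold change was 0.49 ± 0.10 (adjusted p = 0.0189, edgeR), again without overlap. Without SAH mice 3 and 4 and Sham mouse 7 it was 0.31 and did not pass.

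Ctsb, the most abundant cysteine cathepsin per length here, moved least among those that passed. This broad endopeptidase gene (chr14:63741299-63764760, plus strand, mm9) was at 636, 607, 701 and 649.9 CPM in SAH mice and at 583, 592 and 603 as lowest, median and highest in control mice. The groups were separated by a narrow gap, and the log2 fold change was 0.13 ± 0.04 (SE, adjusted p = 0.0992, edgeR). Leaving out 1 mouse at a time ended its call in 9 of 10 fits, and without SAH mice 3 and 4 and Sham mouse 7 the log2 fold change was 0.07.

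The other 4 cysteine cathepsins did not pass. Ctsl, which encodes the endopeptidase cathepsin L, had 87.4, 78.6, 105 and 82.5 CPM in SAH mice against 73.2 to 81.7 in control mice, so that SAH mouse 2 lay within the control range (log2 fold change 0.20 ± 0.07 SE, adjusted p = 0.15, edgeR). Ctso had a log2 fold change of 0.14 ± 0.05 and Ctsf of -0.01 ± 0.04. Summed over the 9 genes, cysteine cathepsin levels were 334 ± 34.9 FPKM in SAH mice and 274 ± 9.24 in control mice (SD, n = 4 and 6), from 291 to 367 and from 261 to 288. Ctss made up 21.4% ± 3.55 of that sum in SAH mice and 15.7% ± 0.903 in control mice, and Ctsb 41.1% ± 2.37 and 45.6% ± 1.26. These sums describe the list and were given no test.

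Of the 4 peptidases of other classes, Ctsd passed. It encodes cathepsin D, the main aspartic protease of lysosomes (chr7:149561821-149573775, minus strand, mm9). SAH mice had 403, 370.3, 504 and 476 CPM and control mice 339.7, 352 and 378 as lowest, median and highest. Mouse 2 fell inside the control range and mice 3 and 4 stood far above it, with a log2 fold change of 0.30 ± 0.07 (SE, adjusted p = 0.0474, edgeR). The Ctsd call was lost on removing SAH mouse 4, and likewise for Naive mouse 8 and for Naive mouse 9, and without SAH mice 3 and 4 and Sham mouse 7 the log2 fold change was 0.13. The log2 fold changes of the other peptidases were 0.13 ± 0.05 for Lgmn, an asparaginyl endopeptidase that also processes cathepsins, 0.09 ± 0.05 for Tpp1, a tripeptidyl peptidase, and 0.09 ± 0.05 for Ctsa, which protects the sialidase Neu1 and the galactosidase Glb1.

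**Figure D3:**
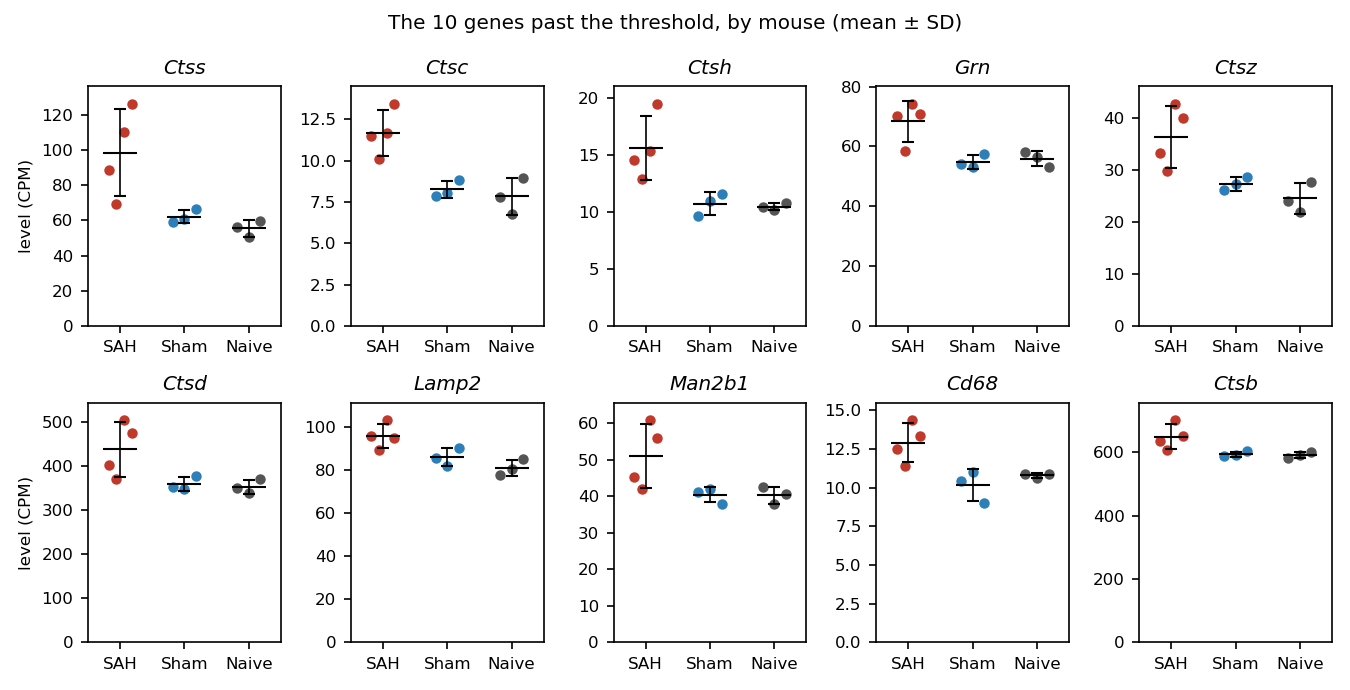
Level in CPM of each mouse for the 10 genes past the threshold, on axes that start at 0, with mean ± SD for SAH (n = 4), Sham (n = 3) and Naive (n = 3) mice, ordered by p. For Ctss the SAH mice lie between 69.2 and 126 CPM and the control mice between 50.4 and 66.3, while for Ctsd SAH mouse 2, at 370.3 CPM, lies below the highest control mouse at 378.

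The glycosidases cut sugars from glycoproteins, glycolipids and glycosaminoglycans. Man2b1, the lysosomal alpha-mannosidase (chr8:87607168-87622638, plus strand, mm9), was the 1 of 7 that passed. Its SAH mice had 45.3, 42.1, 60.7 and 55.8 CPM, against 37.7, 40.9 and 42.4 as lowest, median and highest in control mice. Again mouse 2 fell within the control range and mice 3 and 4 stood highest, and the log2 fold change was 0.34 ± 0.09 (SE, adjusted p = 0.0638, edgeR). The Man2b1 call was lost in 7 of the 10 fits with a mouse removed, and without SAH mice 3 and 4 and Sham mouse 7 the log2 fold change was 0.10. The remaining 6 had log2 fold changes of 0.16 ± 0.06 for Hexa, which acts on gangliosides, 0.13 ± 0.08 for both Gusb and Naglu, 0.12 ± 0.05 for Glb1, 0.04 ± 0.04 for Neu1 and -0.02 ± 0.05 for the glycogen-degrading Gaa. The Glb1 exons overlap those of Tmppe on the same strand, so its counts leave out shared reads.

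Among the genes of lipid handling and cofactors, Grn passed. It encodes progranulin, a secreted protein that is taken into lysosomes and cut into granulins (chr11:102291636-102298123, plus strand, mm9). SAH mice had 70.2, 58.5, 74.3 and 70.8 CPM and control mice 53.0, 55.4 and 58.2 as lowest, median and highest. The groups met closely at mouse 2 without overlapping, and the log2 fold change was 0.30 ± 0.06 (SE, adjusted p = 0.0172, edgeR). Npc2, which hands cholesterol to Npc1 for export from the lysosome, had a log2 fold change of 0.09 ± 0.05, Npc1 of -0.03 ± 0.05 and Psap of 0.04 ± 0.04. Lipa, the acid lipase that hydrolyses cholesteryl esters, had 21.8, 25.0, 14.7 and 28.3 CPM in SAH mice, and its control mice ranged from 22.9 to 28.2. SAH mouse 3 was below every other mouse for Lipa, and without it the log2 fold change went from -0.12 to 0.04.

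Of the membrane proteins, Lamp2 and Cd68 passed. Lamp2, a heavily glycosylated protein of the lysosomal membrane needed for autophagy (chrX:35754534-35809637, minus strand, mm9), had 95.9, 89.4, 103 and 95.0 CPM in SAH mice and 77.5, 83.4 and 90.2 in control mice as lowest, median and highest. Only SAH mouse 2 lay below the highest control mouse, and the log2 fold change was 0.20 ± 0.05 (SE, adjusted p = 0.0528, edgeR). Its call was lost in 4 of the 10 fits with a mouse removed. Its close relative Lamp1 had -0.04 ± 0.04. Cd68, a lysosomal glycoprotein widely used as a marker of phagocytic microglia and macrophages (chr11:69477715-69479672, minus strand, mm9), had 12.5, 11.4, 14.3 and 13.4 CPM in SAH mice against 9.01, 10.7 and 11 in control mice. The groups did not overlap, and the log2 fold change was 0.30 ± 0.08 (adjusted p = 0.0776, edgeR). The Cd68 call was lost in 8 of the 10 fits with a mouse removed, and without SAH mice 3 and 4 and Sham mouse 7 the log2 fold change was 0.15. Laptm5, a lysosomal protein of blood-derived cells and microglia, had 36.8, 29.2, 33.5 and 38.9 CPM in SAH mice, with control mice from 29.1 to 31.6 (log2 fold change 0.19 ± 0.07, adjusted p = 0.192, edgeR). Cd63, a tetraspanin of late endosomes, had a log2 fold change of 0.14 ± 0.05, and Mcoln1, the calcium channel of lysosomes, of -0.02 ± 0.04.

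The inhibitor and the regulator did not pass. Cst3, which encodes cystatin C, had 1036, 983, 1121 and 1041 CPM in SAH mice and 895, 986 and 1106 as lowest, median and highest in control mice, overlapping widely (chr2:148697468-148701204, minus strand, mm9). Its log2 fold change was 0.07 ± 0.05 (SE, adjusted p = 0.525, edgeR), and the range of 2 standard errors either side ran from -0.04 to 0.18. The ratio of Cst3 to summed cysteine cathepsins, both in FPKM, was 4.24 ± 0.272 in SAH mice (3.93 to 4.55) and 4.88 ± 0.204 in control mice (4.63 to 5.18), which describes the list and was given no test. Tfeb, the transcription factor that switches on lysosomal genes when it enters the nucleus, had 7.93, 8.24, 5.15 and 8.55 CPM in SAH mice and 6.56, 8.34 and 9.86 in control mice. SAH mouse 3 was the lowest of all mice, the other 3 lay within the control range, and the log2 fold change was -0.14 ± 0.14 (adjusted p = 0.643, edgeR). A transcript level says nothing of where the Tfeb protein is.

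**Figure D4:**
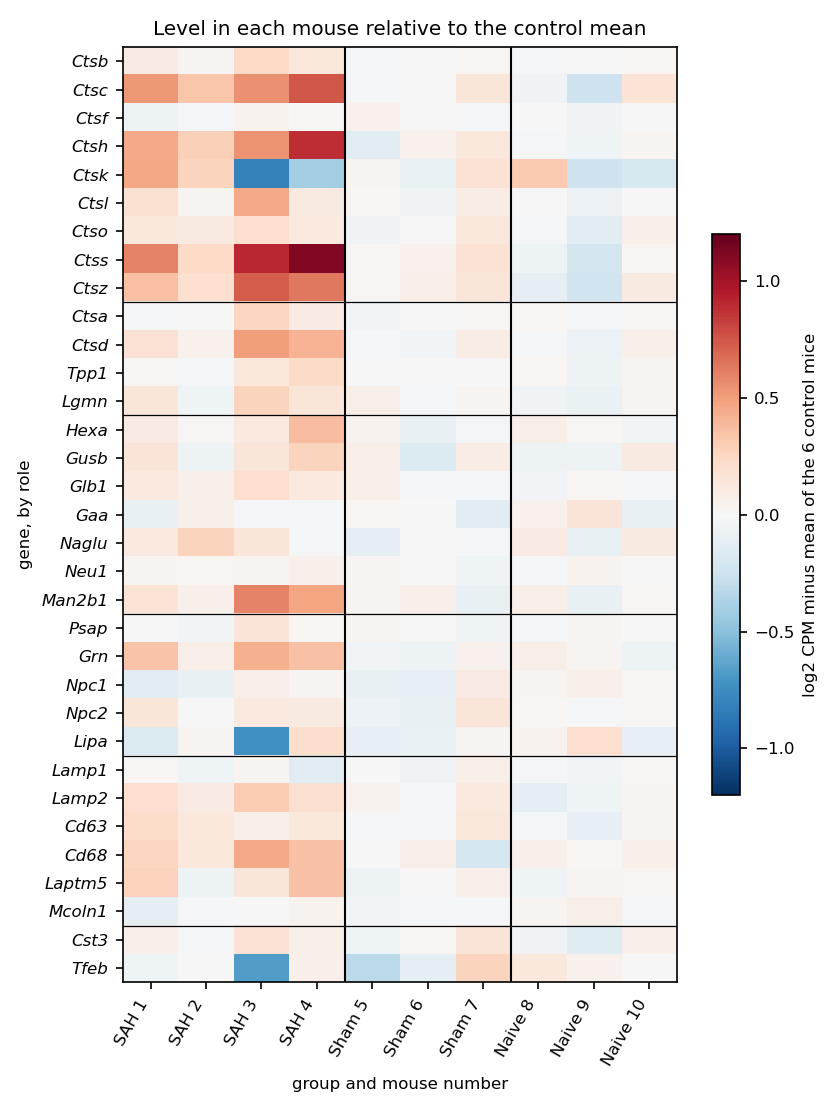
Level of each of the 33 genes in each mouse, as log2 CPM minus the mean of the 6 control mice, with lines between roles and between groups. The red of Ctsc, Ctsh, Ctss and Ctsz runs through all 4 SAH mice and is palest in mouse 2, and SAH mouse 3 is blue for Ctsk, Lipa and Tfeb.

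Against each control group alone, fitted together with shared SAH mice, the list gave different counts. Against Naive mice 6 genes were higher (Ctss, Ctsz, Ctsc, Ctsh, Lamp2 and Grn) and 0 lower, with 2.03% of all genes called higher and 0.965% lower. DESeq2 called 8 (3.09% of all genes), and 14 had an unadjusted p under 0.05 with a higher level (7.78%). Without Naive mouse 8, or without Naive mouse 9, edgeR called 0 (0.570% and 0.705% of all genes), and without SAH mouse 2 it called 10 (2.94%). The choroid plexus markers moved with this comparison, with sums of 101 to 1229 CPM in SAH and 44.7 to 68.5 in Naive mice, and Ttr passed the test (log2 fold change 4.30, adjusted p = 0.0874, edgeR). Their part in these 6 calls was not tested. Against Sham mice edgeR called 0 higher and 0 lower, with 0.529% of all genes called higher and 0.192% lower. There 11 were higher at an unadjusted p under 0.05 (5.87% of all genes), and DESeq2 called 5, namely Ctsc, Ctsh, Ctss, Ctsz and Grn (1.49%). All SAH mice lay above all mice of the other group for 12 genes against Naive mice (7.04% of all genes) and for 8 against Sham mice (5.03%).

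Side by side, the 2 comparisons gave these values for the leading genes. For Ctss the log2 fold change was 0.66 ± 0.16 (SE, adjusted p = 0.11, edgeR) against Sham and 0.83 ± 0.16 (adjusted p = 0.0215) against Naive mice. Ctsc had 0.50 ± 0.12 (adjusted p = 0.114) and 0.57 ± 0.12 (adjusted p = 0.035), and Ctsz 0.41 ± 0.12 (adjusted p = 0.211) and 0.56 ± 0.12 (adjusted p = 0.0338). Ctsh had 0.54 ± 0.13 (adjusted p = 0.11) and 0.57 ± 0.13 (adjusted p = 0.0434), and Grn 0.32 ± 0.08 (adjusted p = 0.113) and 0.29 ± 0.08 (adjusted p = 0.0865). Between Sham and Naive mice edgeR and DESeq2 each called 0 of the 33 genes, against 0.00661% and 0.0132% of all 15134 genes tested called higher. At an unadjusted p under 0.05 in edgeR 0 of the 33 differed, against 1.14% of all genes higher and 0.879% lower. The Sham over Naive log2 fold change of Ctss was 0.16 ± 0.17.

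The other genes of the lysosome were counted in the same way. Of 103 such genes in 5 lists, 92 were tested, 6 were higher in SAH than in control mice and 0 lower, against 3.13% and 1.54% of all genes tested, and their median log2 fold change was 0.04. The hydrolases gave 3 of 33 tested, the membrane proteins 2 of 21, sorting and regulation 1 of 17, the proton pump that acidifies the lysosome 0 of 19 and further inhibitors 0 of 2. The inhibitor Cst7, or cystatin F, named here after its values were seen, did not pass the filter, with 7 to 38 counts among SAH mice against 3 to 6 in the controls. With no filter it was higher by a log2 fold change of 2.24 (adjusted p = 0.0248, edgeR), where 2.53% of all genes were called higher. The hydrolase gene Plbd1, also below the filter, passed there too (1.94, adjusted p = 0.0905, edgeR), and the others below the filter did not. Lyz2, the lysozyme of macrophages, had 14.5 to 21.7 CPM in SAH mice, with control mice from 4.27 to 5.91 (log2 fold change 1.77 ± 0.12 SE, adjusted p = 1.47e-05, edgeR), and its value is uncertain because it has the close copy Lyz1. Ifi30, a thiol reductase of antigen processing, rose by 0.85 ± 0.20 on the log2 scale (adjusted p = 0.0469, edgeR). Gpnmb, Laptm4a and Rragd were also higher. The smallest p-values on the lower side belonged to the lipid transporter Abca2 (-0.13 ± 0.05, adjusted p = 0.154), the pump subunit Atp6v1g2 (-0.09 ± 0.04, adjusted p = 0.237) and the scaffold subunit Lamtor3 (-0.11 ± 0.05, adjusted p = 0.287).

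Markers of cell types moved beside these genes. Among all genes tested 3.13% were called higher and 1.54% lower in SAH against control mice. In bulk tissue a change in the number of cells of a type and a change in RNA per cell cannot be told apart. The 14 microglia markers summed to 533 to 669.6 CPM in SAH mice, with control mice from 480.4 to 546. Of the 14, 4 were higher (C1qa, C1qb, C1qc and Csf1r) and 0 lower. A log2 fold change above 0 was found for 11, while P2ry12, Cx3cr1 and Sall1 had -0.05, -0.06 and -0.09. The sum of the 14 was lowest among the SAH mice in mouse 2. The 7 markers of border macrophages, which live in the meninges, perivascular spaces and choroid plexus, summed to 18.9 to 24.2 CPM in SAH mice. Their sums were 10.5 to 12.3 CPM in Sham and 6.84 to 7.87 in Naive mice. Against the pooled controls 5 of 7 were higher, and the lowest SAH sum was again in mouse 2. Between Sham and Naive mice 0 of the 7 passed the test, and all 7 had a log2 fold change above 0 (median 0.54). Meningeal fibroblast markers (5 of 6 higher) summed to 176 to 330.0 CPM in SAH, 163 to 168 in Sham and 131 to 141 in Naive mice. Oligodendrocyte markers (7 of 7 lower) summed to 2413 to 3117 CPM in SAH and 3504 to 4777 in control mice. The 6 neuron markers, 0 of which passed, summed to 6719 to 7322 CPM in SAH mice against 6636 to 7087 in the controls. SAH mouse 2 also had the lowest neuron and astrocyte sums among the SAH mice. The meningeal fibroblast sum was lowest in mouse 3 and the oligodendrocyte sum in mouse 4.

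Blood cell markers were sparse. The monocyte and lymphocyte markers, of which 7 of 8 were matched in the files, summed to 0.505 to 1.98 CPM in SAH mice against 0.206 to 0.625 in the controls, and 0 passed the filter on low counts in the main comparison. Their member Ccr2, a chemokine receptor of monocytes named here after its values were seen, reached 2 to 32 counts among SAH mice against 1 to 6 in the controls. With no filter its log2 fold change was 2.45 (adjusted p = 0.0177, edgeR), where 2.53% of all genes were called higher. Ly6c2, at 2 to 5 counts in SAH mice, also passed there (2.49, adjusted p = 0.0672, edgeR), and Plac8, Cd3e, Cd3d, Nkg7 and Cd79a did not. In the filtered fit of 3 groups Ccr2 did not pass against Sham (2.32, adjusted p = 0.217, edgeR) or Naive mice (2.60, adjusted p = 0.103, edgeR). The neutrophil markers, of which 3 of 4 were matched and 0 passed the filter, summed to 0.368 to 1.11 CPM in SAH mice against 0.0752 to 0.885 in the controls. Of the 5 erythrocyte markers, Alas2 reached 22 to 100 counts among SAH mice against 31 to 70 in the controls (log2 fold change 0.36 ± 0.28 SE, adjusted p = 0.546, edgeR). The 4 globin genes Hbb-b1, Hbb-b2, Hba-a1 and Hba-a2 were listed at 0 in every mouse, in files from which reads matching several places were left out, so these zeros do not measure blood. Astrocyte markers (1 of 6 higher, Gfap, against 3.13% of all genes) summed to 5213 to 6313 CPM in SAH and 5153 to 5637 in control mice. Endothelial markers (2 of 5 higher) summed to 103 to 207 CPM in SAH and 94.3 to 132 in control mice. The part of these markers in the results for the lysosome and cathepsin genes was not tested.

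**Figure D5:**
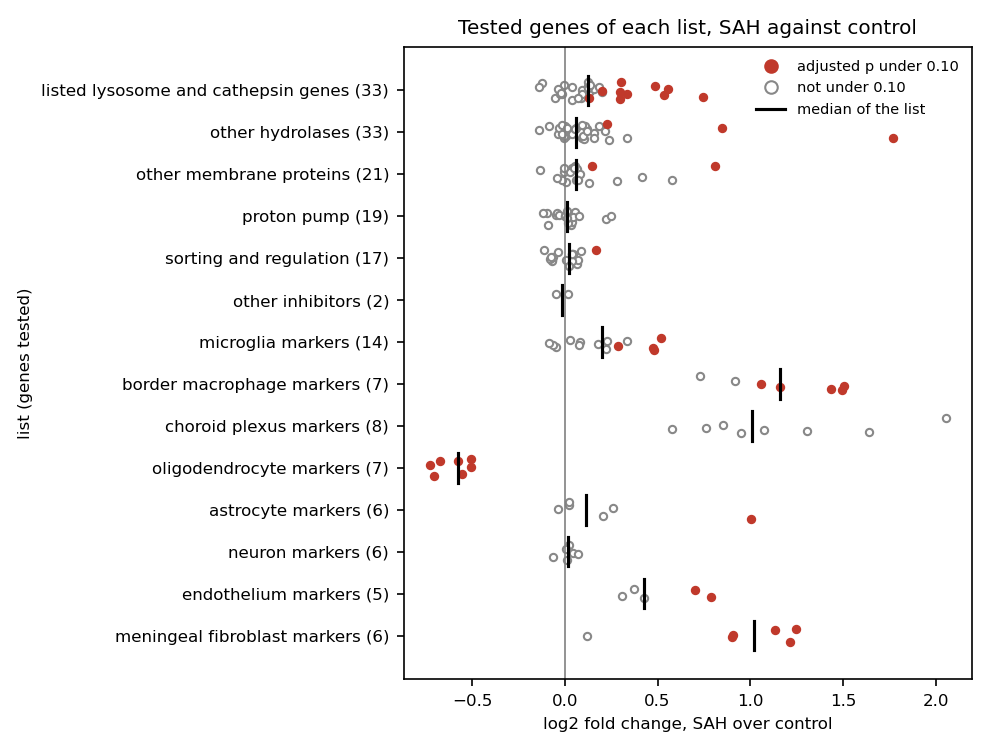
Log2 fold change between SAH and control mice for each tested gene of the 33, of the 5 other lysosomal lists and of the marker lists with more than 1 gene tested. Red points passed the adjusted p threshold and black lines are medians, 0.13 for the 33 genes, 0.20 for microglia and 1.16 for border macrophage markers.

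The promoter letters shown above were set beside the fold changes as a description. The 30 genes with a window had 35 windows. CACGTG was found in 7.15% of the 32851 RefSeq windows and in 10 of these 35. They belong to 10 genes (Ctsf, Ctsl, Ctsa, Ctsd, Lgmn, Glb1, Gaa, Naglu, Lamp1 and Mcoln1). Of these 10 genes, 1 was past the threshold, Ctsd, and their log2 fold changes ran from -0.04 to 0.30 with a median of 0.10. The 20 genes whose windows lack these letters had 7 past the threshold and a median of 0.14. Ctsb and Ctsh, also past the threshold, have no window and enter neither count. Of all 14993 genes tested 3.13% were called higher, and the share among all genes with or without the letters was not computed. Whether the letters bear on the calls was not tested. The 8 letters CACGTGAC, which hold the E-box, were in 7 of the 35 windows, of 7 genes, and in 2.25% of all windows. GAGGAAGT was in 3.20% of all windows and in 3 of the 35, those of Ctsc, Ctss and Gusb, starting 2 bases before the annotated start of Ctss. Of these 3 genes Gusb did not pass the test (log2 fold change 0.13, adjusted p = 0.459, edgeR). The repeat of GAAA set 2 bases apart was in 3.44% of all windows and in 3 of the 35. These were the windows of Ctso, Ctss and Lamp1, of which only Ctss passed.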

How the data were processed

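RNA-seq of 10 mouse hippocampi (4 SAH, 3 Sham, 3 Naive) was used. Per the study's methods, libraries were stranded, depleted of ribosomal RNA and sequenced as read pairs. The authors aligned to mm9 with STAR and counted fragments per gene name with featureCounts 1.6.2 (reverse-stranded, UCSC annotation), and the deposited values are these raw counts, with the exon length of each gene beside them. Reads of several places or genes were left out, which lowers counts of genes with close copies. Total counts per mouse ran from 19743388 to 27254655, so even Ctsk had 24 counts or more. No pair of libraries within a group agreed within sampling noise (chi-square per degree of freedom 4.30 to 20.7, highest for pairs with SAH mouse 3).

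Counts were tested with edgeR 4.0.16 (quasi-likelihood test, TMM scaling, filterByExpr with a minimum count of 10 and a total of 15), with Benjamini-Hochberg adjustment over all genes tested and a threshold of 0.10. SAH was compared with Sham and Naive pooled, and the 3 groups pairwise in 1 fit. Standard errors are the log2 fold change divided by the square root of F. CPM and FPKM were computed from the counts with TMM scaling. The labels number the mice and name no batch.

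All 33 genes are accounted for. Values of every SAH mouse, with the lowest, median and highest control value, are given for genes past the threshold and for Cst3 and Tfeb, the 33 and all lists having been chosen with earlier results of these data known. Those of Ctsl, Ctsk, Lipa and Laptm5 were added after their values were seen. For the other lysosomal lists the 3 smallest p-values in each direction are named, except 1 gene that is not reported here. Alternatives were DESeq2 1.42.0 (also with its size factors in edgeR), library size alone, no filter, 10 counts in every mouse, adjusted p under 0.05, a robust fit, a fit of 3 groups, only the compared groups, a choroid plexus covariate, each mouse left out and, added after seeing the data, the 3 mice with most choroid plexus markers left out. Both tools were tested on simulated counts for SAH against control over 14993 genes with 200 changed. There edgeR called 174, of which 162 were changed and 6.90% false, and DESeq2 called 201, of which 15.9% were false, above the threshold. Promoter windows come from RefSeq (GRCm38.p6), the counts from mm9, and no coordinates were converted. Figures were drawn with matplotlib 3.10.9.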

Additional observations from a re-analysis of the deposited data

Results flagged for a closer look

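Of 66 checks of a gene's level in the SAH or the control group, 1 found a mouse set apart from the others of its group. Cd68 was at 9.01 CPM in Sham mouse 7, while the other 5 control mice ran from 10.4 to 11 CPM, a gap of 0.709 of the whole range. Chance alone sets apart about 1 in 20 groups. Sham mouse 7 was also the control mouse with most choroid plexus markers.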

How the results depend on the processing

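The count of 10 genes higher in SAH than in control mice became 6 at an adjusted p under 0.05, 1 with the choroid plexus covariate and 3 without the 3 mice with most choroid plexus markers, a fit with fewer samples. Of all genes 1.85%, 0.907% and 1.70% were called higher in these 3, against 3.13%. With the other settings it was 9 to 11 (2.53% to 4.22% of all genes). With each mouse left out in turn it ran from 5 to 13, and fell to 5 on leaving out SAH mouse 4, and likewise for Naive mouse 8 and for Naive mouse 9. Ctss, Ctsc, Ctsh, Ctsz and Grn passed in all 10 of these fits. The call was lost in 9 of them for Ctsb, 8 for Cd68, 7 for Man2b1, 4 for Lamp2 and 3 for Ctsd, while Ctsl, Lgmn and Laptm5 passed without SAH mouse 2. Against Sham mice the count of 0 became 5 with DESeq2 (1.49% of all genes) and 4 with no filter (0.686%), and ran from 0 to 7 with mice left out (0.0393% to 1.10% of all genes), with 1 without SAH mouse 1 (0.853%), 7 without SAH mouse 2 (1.04%) and 2 without SAH mouse 3 (1.10%). Against Naive mice the count of 6 ran from 0 to 10 (0.570% to 2.94% of all genes), with 10 without SAH mouse 2 and 0 without Naive mouse 8 or Naive mouse 9. Counts of lower genes, and both counts between Sham and Naive mice, were 0 under every setting run.

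Some log2 fold changes turned sign. With the covariate, Ctsk went to 0.0589 and Gaa to 0.0194. Without the 3 mice Ctsk went to 0.374, Ctsa to -0.00587, Psap to -0.0254 and Tfeb to 0.0284. With single mice left out, Ctsf ran from -0.0202 to 0.0108, Ctsk from -0.248 to 0.123, Gaa from -0.0409 to 0.0156, Psap from -0.00256 to 0.0581, Npc1 from -0.0595 to 0.00619, Lipa from -0.252 to 0.0353 and Mcoln1 from -0.042 to 0.00597. Between Sham and Naive mice, Ctsb ran from -0.00854 to 0.0158, Ctsc from -0.0198 to 0.179, Ctsh from -0.0251 to 0.107, Ctsd from -0.0106 to 0.0627, Man2b1 from -0.0402 to 0.0444 and Grn from -0.064 to 0.00247. The cause of these shifts was not tested. No paired analysis was possible because the mouse numbers are not shared between groups.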
